A study of Mus musculus with 12 samples.

Results

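The synaptic vesicle and release machinery was followed here as 40 genes, selected by gene symbol from the 45906 genes of the deposited count table and present in all 12 spinal cord libraries. The list holds 9 calcium sensors and C2-domain proteins, 7 vesicle proteins, 9 SNARE proteins and their regulators, 7 active zone and priming proteins, 4 genes of endocytosis and presynaptic mitochondria, and 4 vesicular transmitter transporters. All 40 passed the filter on low counts, among 20155 genes tested. The tissue was whole spinal cord of mice aged 7 months on a C57BL/6 background, with 3 mice per genotype, and poly-A RNA was read. Plekhg5+/+ mice carried neither alteration. Plekhg5-/- mice lacked Plekhg5, a guanine exchange factor for Rab26 that acts in autophagy of synaptic vesicles. Plekhg5+/+ SOD1-G93A mice carried a transgene for human SOD1 with the G93A substitution, in a low copy line in which disease progresses slowly, and Plekhg5-/- SOD1-G93A mice carried both alterations. Each library came from a different mouse, and sex was not part of the design.

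A nerve terminal releases transmitter when an action potential admits calcium. Vesicles are docked and primed at the active zone by scaffold and priming proteins, the SNARE proteins of vesicle and plasma membrane zip together, and synaptotagmins couple calcium to fusion, after which the membrane is retrieved by endocytosis. In the spinal cord these terminals belong to local excitatory and inhibitory interneurons, descending axons, sensory afferents and recurrent collaterals of motoneurons. The transcripts lie largely in cell bodies, so RNA of the cord samples local neurons, whereas axons that enter from brain or ganglia have their somata elsewhere. Motoneuron terminals in muscle lie outside the tissue, while the somata that supply them lie inside it.

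The libraries held 30415643 to 38743628 counts, of which the 40 genes took 1.48% to 1.71%, and the lowest count of any of the 40 genes in any library was 42. Plekhg5 was measured at 19.4 to 25 CPM (counts relative to library size) in the 6 Plekhg5+/+ libraries with or without the transgene and at 3.28 to 4.72 CPM in the 6 Plekhg5-/- libraries. Human SOD1 was measured at 4420 to 5640 CPM with the transgene and at 0.153 to 5.47 CPM without it. Both matched the labels. General neuron markers were present in every library. CPM are scaled by library size factors throughout, and levels are compared between genes only after division by merged exon length, as CPM per kilobase.

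In Plekhg5+/+ spinal cord, the transcript levels of the machinery spanned more than 3 orders of magnitude per kilobase. Genes of the SNARE role held the first 3 ranks, while Stx1a of the same role stood at rank 32 with 6.12 ± 0.482 CPM per kilobase. Snap25 (gene ID 20614, chromosome 2, 136713439 to 136782428, plus strand, GRCm38.p6), the plasma membrane SNARE, stood at 1120 ± 62.2 CPM per kilobase (SD, n = 3), followed by Cplx1, a complexin that clamps and promotes fusion, at 530 ± 11.1, and Vamp1, a vesicle SNARE, at 459 ± 20.9. Syp, an integral membrane protein of the vesicle, came next at 327 ± 17.7 CPM per kilobase, and Nsf, the ATPase that takes spent SNARE complexes apart, at 277 ± 17.3. These leading genes did not overlap with their neighbours in the order among the 3 mice.

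The lead gene of each role is given mouse by mouse. Snap25 was measured at 3040, 2730 and 2940 CPM in Plekhg5+/+ mice, 2850, 2730 and 2880 in Plekhg5-/- mice, 2400, 2840 and 2490 in Plekhg5+/+ SOD1-G93A mice, and 2870, 2760 and 2860 in Plekhg5-/- SOD1-G93A mice. The lowest Snap25 values were those of Plekhg5+/+ SOD1-G93A mice 1 and 3, while the other mouse of that genotype lay within the range of the remaining groups.

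Among the calcium sensors, Syt11, a synaptotagmin that does not bind calcium, led at 192 ± 6.95 CPM per kilobase and Rph3a, the Rab3 effector rabphilin, followed at 187 ± 16. Syt11 ranged from 933 to 995 CPM in Plekhg5+/+, 989 to 1020 in Plekhg5-/-, 899 to 1080 in Plekhg5+/+ SOD1-G93A and 963 to 1050 in Plekhg5-/- SOD1-G93A mice, and all 4 groups overlapped. The fast calcium sensor Syt2 stood at 105 ± 19.1 CPM per kilobase and its forebrain counterpart Syt1 at 43.4 ± 2.56. Syt4, a synaptotagmin of Golgi-derived and dense core vesicles, stood at 38.5 ± 2.12. Syt7, the slow sensor of asynchronous release, reached 15.3 ± 1.93, and Doc2a and Doc2b, high-affinity sensors of spontaneous release, 11.1 ± 0.475 and 2.68 ± 0.141 CPM per kilobase.

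Of the vesicle proteins, Syp led with 863, 784 and 790 CPM in Plekhg5+/+ mice, 831, 801 and 774 in Plekhg5-/- mice, 732, 770 and 783 in Plekhg5+/+ SOD1-G93A mice and 811, 824 and 792 in Plekhg5-/- SOD1-G93A mice. All Plekhg5+/+ SOD1-G93A mice were below all Plekhg5+/+ mice, by 1 CPM at the closest pair after rounding. Synapsin genes, which tether vesicles in the reserve pool, fell in the order Syn1 (120 ± 10.4 CPM per kilobase), Syn2 (48.7 ± 0.503) and Syn3 (1.67 ± 0.374). The level of Syn3 depends on its merged exon length of 56475 bases, the longest of the list.

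Active zone genes were low per kilobase. Unc13a, the priming factor Munc13-1, led at 15.6 ± 2.3, Rims1 stood at 15 ± 1.56, and the giant scaffolds Pclo (piccolo) and Bsn (bassoon) at 9.16 ± 1.41 and 8.61 ± 1.99 CPM per kilobase. Unc13a was measured at 139, 184 and 180 CPM in Plekhg5+/+ mice, 141, 174 and 169 in Plekhg5-/- mice, 148, 168 and 125 in Plekhg5+/+ SOD1-G93A mice and 173, 166 and 161 in Plekhg5-/- SOD1-G93A mice. In each of the first 3 genotypes 1 library was lower than its group mates, as for other long transcripts described below.

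Dnm1, the neuronal dynamin that cuts endocytic vesicles off the membrane, led its role at 211 ± 19.4 CPM per kilobase, with 844, 980 and 1010 CPM in Plekhg5+/+ mice, 908, 948 and 982 in Plekhg5-/- mice, 857, 957 and 836 in Plekhg5+/+ SOD1-G93A mice and 1010, 973 and 969 in Plekhg5-/- SOD1-G93A mice. Every Plekhg5-/- SOD1-G93A mouse exceeded every Plekhg5+/+ SOD1-G93A mouse for Dnm1. Snph, which anchors mitochondria in axons, followed at 47.3 ± 4.42 CPM per kilobase.

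The transporters give the transmitter makeup of the cord. Slc17a6, which loads glutamate in most spinal excitatory neurons, led at 61 ± 3.77 CPM per kilobase, and Slc32a1, which loads GABA and glycine, followed at 47 ± 2.6. Slc17a7, the glutamate transporter typical of cortex and of large sensory afferents, and Slc17a8, that of a small set of dorsal horn and monoamine neurons, closed the list at 1.06 ± 0.169 and 0.374 ± 0.0355. Slc17a6 was measured at 258, 273 and 292 CPM in Plekhg5+/+ mice, 262, 273 and 270 in Plekhg5-/- mice, 246, 261 and 242 in Plekhg5+/+ SOD1-G93A mice and 270, 282 and 275 in Plekhg5-/- SOD1-G93A mice, with the transgenic groups apart from each other.

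The order was densely packed below the leading genes. Of 39 pairs of neighbours in the order by Plekhg5+/+ level, 21 overlapped among the 3 mice, so their order is not resolved. Across all 12 libraries, the highest value was under 1.5 times the lowest in 33 of the 40 genes, and it reached 2 times or more in 3: Slc17a7 (8.56 times), Sv2c (2.66 times) and Slc17a8 (2.51 times).

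**Figure D1:**
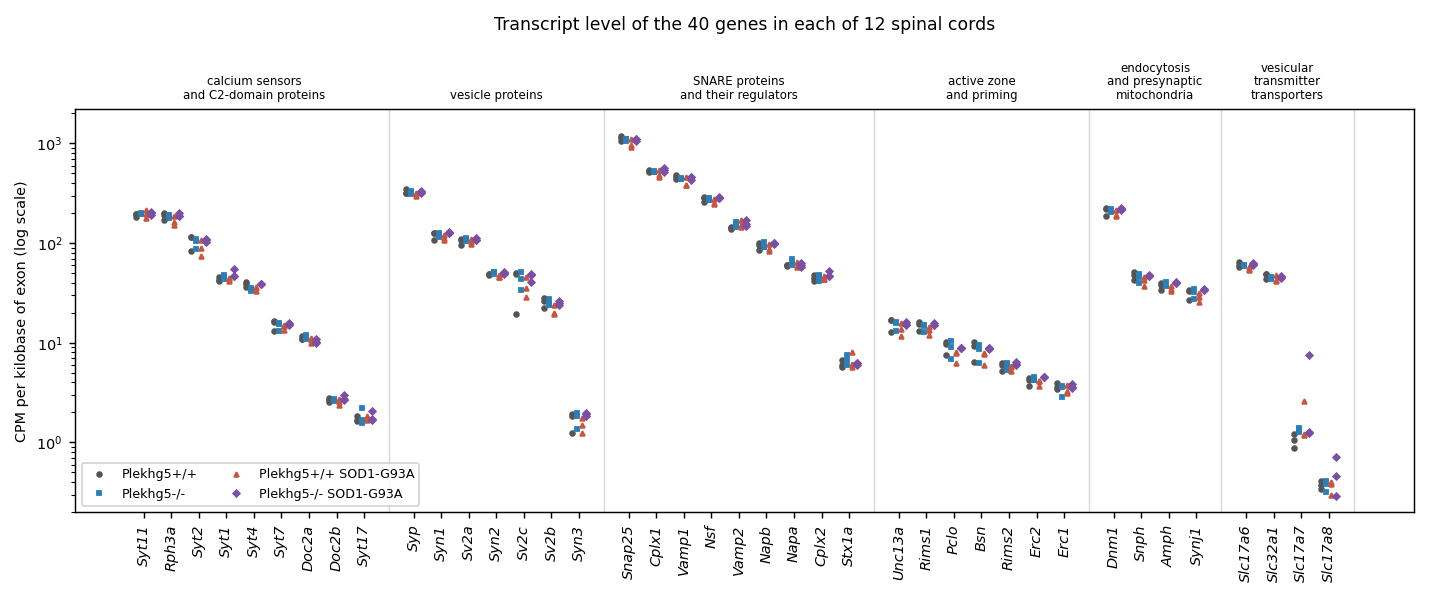
Level of each gene in CPM per kilobase of merged exon (log scale), grouped by role and ordered by the Plekhg5+/+ mean, with 1 point per mouse and a symbol and colour per genotype. The 12 points of most genes lie on top of each other, Snap25 is highest at 1120 in Plekhg5+/+ mice, and single mice stand apart in Sv2c, Slc17a7 and Slc17a8.

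Ratios between genes of shared role do not depend on the scaling between libraries. They can still depend on transcript length, since the genes of a pair differ in merged exon length. In the 3 libraries low in long transcripts, described below, the longer gene was relatively lowest of its genotype in Syt2/Syt1, Vamp1/Vamp2, Sv2c/Sv2a and Napa/Napb. It was relatively highest in Rims1/Rims2 and Syn2/Syn1, and the remaining ratios were mixed. No ratio was recomputed with a term for length. Vamp1 exceeded Vamp2 by 3.22 ± 0.201 times and Syt2 exceeded Syt1 by 2.41 ± 0.438 times in Plekhg5+/+ mice (SD, n = 3), the Vamp1 and Syt2 pair being the isoforms of fast synapses in brainstem and cord, whereas Vamp2 and Syt1 are those of the forebrain. Cplx1 exceeded Cplx2 by 11.9 ± 0.603 times. Slc32a1 was 0.771 ± 0.027 times Slc17a6, while Slc17a7 was 0.0175 ± 0.00384 and Slc17a8 0.00612 ± 0.000208 times Slc17a6. Rims1 was 2.58 ± 0.0246 times Rims2, among the tightest of the 12 ratios.

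Every direction of dominance was the same in all 12 libraries for Vamp1 over Vamp2 (2.2 to 3.36 times), Syt2 over Syt1 (1.67 to 2.79 times), Cplx1 over Cplx2 (9.92 to 12.5 times) and Rims1 over Rims2 (2.29 to 2.6 times). The 12 ratios were compared in the 4 pairwise comparisons of genotype, 48 tests in all, by a two-sided exact permutation test of log2 ratios that cannot go below p = 0.1 with 3 mice against 3. The groups did not overlap in 4 of the 48 tests, and the lowest Benjamini-Hochberg adjusted value of the exact permutation tests was 0.686. Groups that separate completely take the lowest value of the exact permutation test, 0.1. A share of 0.1 of such tests would thus separate without any difference between genotypes. The 4 of 48 tests did not exceed this share, so the values that follow are descriptive. The 4 were Sv2b/Sv2a in Plekhg5+/+ SOD1-G93A against Plekhg5+/+ (log2 difference -0.26) and in Plekhg5-/- SOD1-G93A against Plekhg5+/+ SOD1-G93A (0.17), and Rims1/Rims2 in Plekhg5+/+ SOD1-G93A against Plekhg5+/+ (-0.12) and in Plekhg5-/- against Plekhg5+/+ (-0.07). SV2A is the binding site of the drug levetiracetam and SV2B its relative. The Sv2b/Sv2a ratio was 0.232, 0.24 and 0.261 in Plekhg5+/+ mice, 0.238, 0.215 and 0.252 in Plekhg5-/- mice, 0.191, 0.218 and 0.204 in Plekhg5+/+ SOD1-G93A mice and 0.233, 0.221 and 0.235 in Plekhg5-/- SOD1-G93A mice. The 3 Plekhg5+/+ SOD1-G93A values were below those of Plekhg5+/+ and of Plekhg5-/- SOD1-G93A mice, and overlapped with Plekhg5-/-. Sv2a itself was measured at 376, 429 and 423 CPM in Plekhg5+/+, 407, 437 and 431 in Plekhg5-/-, 401, 431 and 383 in Plekhg5+/+ SOD1-G93A and 442, 426 and 422 in Plekhg5-/- SOD1-G93A mice, and all groups overlapped. RIM1 and RIM2, the products of Rims1 and Rims2, tie vesicles and calcium channels to the active zone. The Rims1/Rims2 ratio was 2.55, 2.6 and 2.59 in Plekhg5+/+, 2.41, 2.53 and 2.43 in Plekhg5-/-, 2.37, 2.47 and 2.29 in Plekhg5+/+ SOD1-G93A and 2.5, 2.48 and 2.45 in Plekhg5-/- SOD1-G93A mice. Rims2 was measured at 80.3, 93 and 96.6, then 82.3, 90.9 and 97.2, then 87.8, 90.2 and 81.2, then 93.5, 99.5 and 95.3 CPM in the same order. The Plekhg5+/+ ratios were above those of every other mouse, and the other genotypes overlapped with each other.

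**Figure D2:**
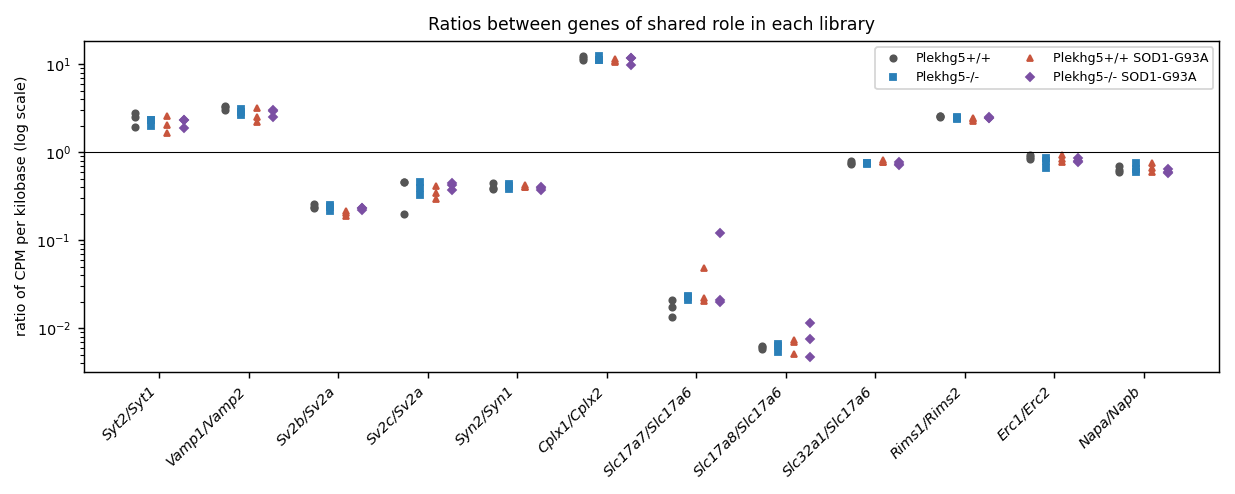
Ratio of CPM per kilobase of 2 genes of shared role (log scale), 1 point per mouse, with a symbol and colour per genotype and a line at equality. Cplx1/Cplx2, Vamp1/Vamp2, Rims1/Rims2 and Syt2/Syt1 lie above 1 in every mouse, and Slc17a7/Slc17a6 reaches 0.121 in Plekhg5-/- SOD1-G93A mouse 2 against 0.0136 to 0.0481 in the others.

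Before genotypes are compared, 3 libraries need to be set apart. In Plekhg5+/+ mouse 1, Plekhg5-/- mouse 1 and Plekhg5+/+ SOD1-G93A mouse 3, long transcripts were low relative to short ones over the whole transcriptome. The median deviation from the 12-library mean of the 2236 genes of at least 7346 bases minus that of the 2236 genes of at most 2230 bases was -0.21, -0.30 and -0.28 on the log2 scale, against -0.0044 to 0.20 in the other 9 libraries. The machinery carried the same gradient. The 10 longest genes of the list, from Syt2 at 7578 bases upwards, were below both group mates in 10 of 10 cases in each of the 3 libraries. Among the 10 shortest, up to 3219 bases, 3, 3 and 2 genes were below both. Bsn (chromosome 9, 108096022 to 108190419, minus strand), at 19166 bases, was measured at 123, 196 and 176 CPM in Plekhg5+/+ mice and 120, 166 and 183 in Plekhg5-/- mice. Plekhg5+/+ SOD1-G93A mice held 151, 147 and 114 CPM of Bsn and Plekhg5-/- SOD1-G93A mice 171, 167 and 168. The low Bsn value of each of the first 3 genotypes was the library of that group named above, and the genotype without such a library was the tightest. Sv2c, a vesicle protein of basal ganglia and motor nuclei, was low in the same libraries although its merged exons span 4361 bases, with 84, 219 and 215 CPM in Plekhg5+/+ mice. Since every group but Plekhg5-/- SOD1-G93A held 1 such library, the counts of each comparison are also given without all 3, an alternative chosen after the data were seen.

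**Figure D3:**
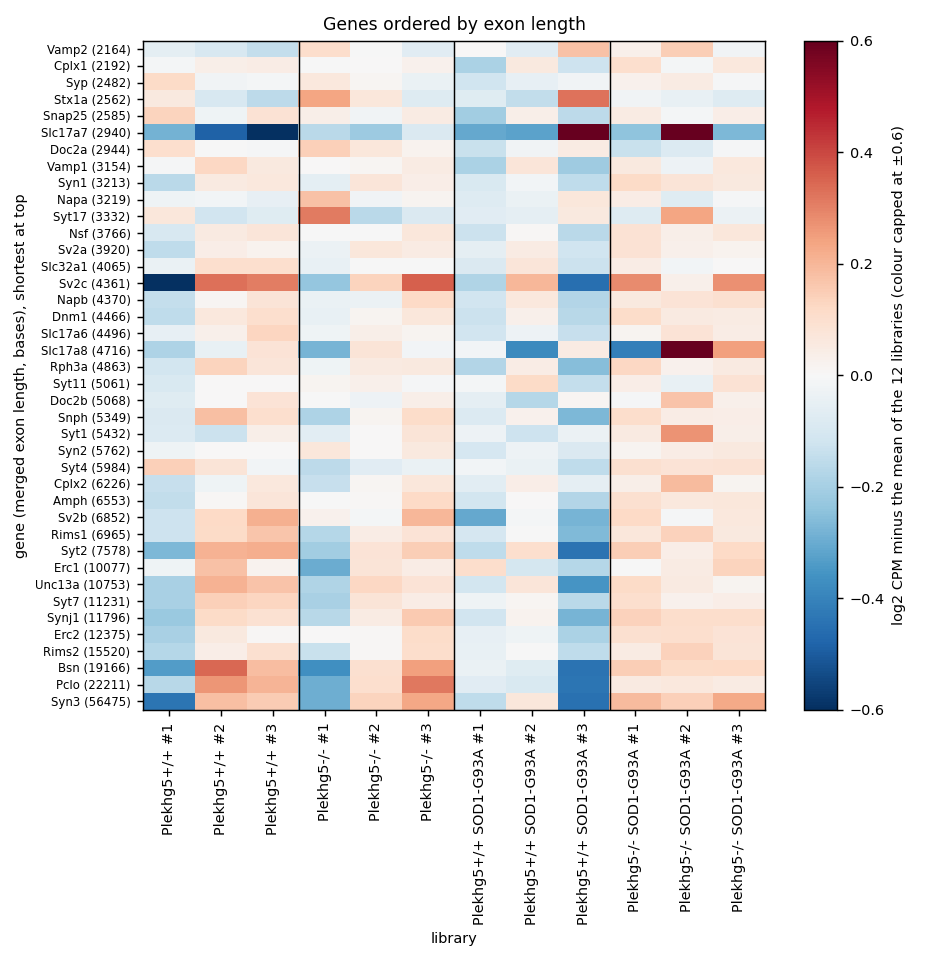
Deviation of each gene from its mean over the 12 libraries (log2 CPM, colour), with genes ordered from the shortest to the longest merged exon length and libraries in columns by genotype. Plekhg5+/+ #1, Plekhg5-/- #1 and Plekhg5+/+ SOD1-G93A #3 turn blue towards the long genes at the bottom, while the 3 Plekhg5-/- SOD1-G93A libraries stay pale for most genes.

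The first comparison asked what the SOD1-G93A transgene did with Plekhg5 intact. None of the 40 genes passed the threshold in Plekhg5+/+ SOD1-G93A against Plekhg5+/+ (edgeR's quasi-likelihood test, Benjamini-Hochberg adjusted p under 0.05), in a comparison in which 2.47% of all genes tested did. At an unadjusted p under 0.05 there were 5 of 40, against 18.2% of all genes. DESeq2 also called 0, with 6 at an unadjusted p under 0.05, against 10.8% of the 33715 genes in its fit. The estimates leaned to one side: 33 of 40 log2 fold changes were below 0, against 50.3% of all genes, and their median was -0.09, against -0.001 over all genes tested. No gene had all transgenic mice above all controls, against 11.6% of all genes, and 3 genes, Syt4, Syp and Syn2, had them all below, against 9%. In bulk tissue, fewer neurons and less RNA per neuron cannot be told apart.

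All 7 vesicle protein genes, all 7 active zone genes and all 4 genes of endocytosis and presynaptic mitochondria had estimates below 0, with medians of -0.09, -0.18 and -0.11. SNARE genes were split, 4 above and 5 below 0. The smallest p belonged to Sv2b, measured at 152, 180 and 192 CPM in Plekhg5+/+ and 134, 165 and 137 CPM in Plekhg5+/+ SOD1-G93A mice. Transgenic mice 1 and 3 were below all controls and mouse 2 was between them. The log2 fold change of Sv2b was -0.27 ± 0.10 (SE), with an edgeR adjusted p of 0.166. For Snap25 the log2 fold change was -0.17 ± 0.07 (adjusted p = 0.196, edgeR), again with transgenic mouse 2 among the controls. Syt4 was measured at 243, 232 and 217 CPM in Plekhg5+/+ and 217, 214 and 197 CPM in Plekhg5+/+ SOD1-G93A mice, so that the closest mice of the groups were apart by less than 1 CPM. Its log2 fold change was -0.14 ± 0.06 (adjusted p = 0.242, edgeR).

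The 95% intervals bound what the data leave possible. For 35 of the 40 genes the whole interval lay within 1.5-fold of equality. The 5 wider ones were Sv2c, Bsn, Pclo, Slc17a7 and Slc17a8. For Snap25 the interval ran from 0.802 to 0.982 times the control level, and for Syt1 from 0.893 to 1.11 times.

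Single libraries carried weight. Without Plekhg5+/+ SOD1-G93A mouse 2, Snap25 and Vamp1 passed the threshold as lower, with a log2 fold change of -0.27 and an edgeR adjusted p of 0.0409 for Snap25. Mouse 2 had the highest value of its genotype in both genes, so leaving it out lowers both estimates. How many of all genes passed without it is not given here. Without the 3 libraries low in long transcripts, Bsn passed as lower with -0.33 ± 0.06 (adjusted p = 0.0466, edgeR), where 246 of all 20357 genes passed. In that fit 35 of 40 estimates were below 0, against 50.8% of all genes, and their median was -0.11. Of the 40, 15 had an unadjusted p under 0.05, against 22% of all genes. With a term for length, 28 of 40 were below 0, against 47.5% of all genes, and the median was -0.05. In that fit 7 had an unadjusted p under 0.05, against 21.4% of all genes. None passed there, and the Bsn estimate was -0.14 ± 0.11 (edgeR adjusted p = 0.5). Vamp1 and Bsn are named after their values were seen. Bsn without the 3 libraries rests on 2 mice against 2.

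Glial markers moved in the same comparison. Of 12 microglial markers 11 rose, among them Cd68, a lysosomal protein of phagocytes (log2 fold change 2.36 ± 0.30, adjusted p = 0.0125, edgeR), and Trem2, a lipid receptor (1.79 ± 0.26, adjusted p = 0.0125, edgeR). Summed microglial markers ran from 475 to 553 CPM in Plekhg5+/+ mice and stood at 1690, 912 and 972 CPM in Plekhg5+/+ SOD1-G93A mice 1, 2 and 3. The astrocyte markers Gfap and Vim also rose, 2 of 9. All 11 general neuron markers had estimates below 0 (median -0.12) and 9 of 10 motoneuron markers (median -0.34), and none of either passed the threshold (lowest adjusted p = 0.0639 and 0.0703, edgeR). Summed neuron markers were 7530, 7710 and 7560 CPM in Plekhg5+/+ and 6230, 7080 and 6410 CPM in Plekhg5+/+ SOD1-G93A mice, the same order among transgenic mice as for Snap25 in that mouse 2 was highest. The part of these shifts in the values of the machinery was not tested.

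The second comparison asked what loss of Plekhg5 did on the transgenic background. None of the 40 genes passed the threshold in Plekhg5-/- SOD1-G93A against Plekhg5+/+ SOD1-G93A by edgeR, where 0.0347% of all genes did, and DESeq2 called 0 as well. At an unadjusted p under 0.05 there were 12 of 40 by edgeR, against 8.64% of all genes, and 15 by DESeq2, against 5.16%. Estimates were above 0 for 38 of 40 genes, against 47.5% of all genes, with a median of 0.15 against -0.0097 over all genes tested. In 19 of 40 genes all 3 double-mutant mice exceeded all 3 Plekhg5+/+ SOD1-G93A mice, against 9.48% of all genes, and in 0 they were all lower, against 10%. The 2 genes with estimates below 0 were Stx1a, the plasma membrane syntaxin (-0.10 ± 0.12), and Doc2a (-0.04 ± 0.07). This comparison shares the Plekhg5+/+ SOD1-G93A libraries with the first one, so their opposite lean is not independent.

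The 19 separated genes were spread over the roles: 3 of 9 calcium sensors (Syt1, Syt4, Syt7), 5 of 7 vesicle proteins (Syn1, Syn2, Syn3, Syp, Sv2b), 1 of 9 SNARE genes (Nsf), 5 of 7 active zone genes (Rims1, Rims2, Bsn, Pclo, Erc2), all 4 genes of endocytosis and presynaptic mitochondria (Amph, Dnm1, Synj1, Snph) and 1 of 4 transporters (Slc17a6). Syt4 had the smallest p, with 217, 214 and 197 CPM in Plekhg5+/+ SOD1-G93A and 235, 232 and 233 CPM in Plekhg5-/- SOD1-G93A mice. The double mutants were tight and all higher. The log2 fold change of Syt4 was 0.16 ± 0.06 (adjusted p = 0.517, edgeR).

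Sv2b stood at 134, 165 and 137 CPM in Plekhg5+/+ SOD1-G93A and 180, 165 and 173 CPM in Plekhg5-/- SOD1-G93A mice. All double mutants were higher, though mouse 2 of each genotype met at 165 CPM after rounding. Its log2 fold change was 0.25 ± 0.10 (adjusted p = 0.525, edgeR). Syt1 stood at 240, 225 and 239 CPM against 255, 296 and 252 CPM, with double-mutant mouse 2 above all 11 other mice. The log2 fold change of Syt1 was 0.19 ± 0.07 (adjusted p = 0.525, edgeR), and it was 0.11 without that mouse.

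The intervals again lay within 1.5-fold of equality for 35 of 40 genes, the exceptions being Syn3, Sv2c, Bsn, Slc17a7 and Slc17a8. Without the 3 libraries low in long transcripts 39 of 40 estimates were above 0, against 47.4% of all genes, and the median was 0.11. In that fit 16 genes had an unadjusted p under 0.05, against 11.7% of all genes, and 0 passed by edgeR. With a term for length 38 were above 0, against 48.2% of all genes, and the median was 0.12. There 13 had an unadjusted p under 0.05, against 10.2% of all genes, and 0 passed by edgeR.

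Markers of other cells moved here too, none past the threshold. All 12 microglial markers were below 0 (median -0.75), with sums of 761, 735 and 680 CPM in the double mutants against the 912 to 1690 CPM given above. All 7 endothelial markers were above 0 (median 0.54). Of 5 Schwann cell markers of spinal roots 4 were above 0 (median 0.93), with sums of 499, 446 and 629 CPM in double mutants against 208, 335 and 297 CPM in Plekhg5+/+ SOD1-G93A mice. Neuron markers were above 0 in 10 of 11 cases (median 0.11) and motoneuron markers in 10 of 10 (median 0.24). The part of these shifts in the values of the machinery was not tested.

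**Figure D4:**
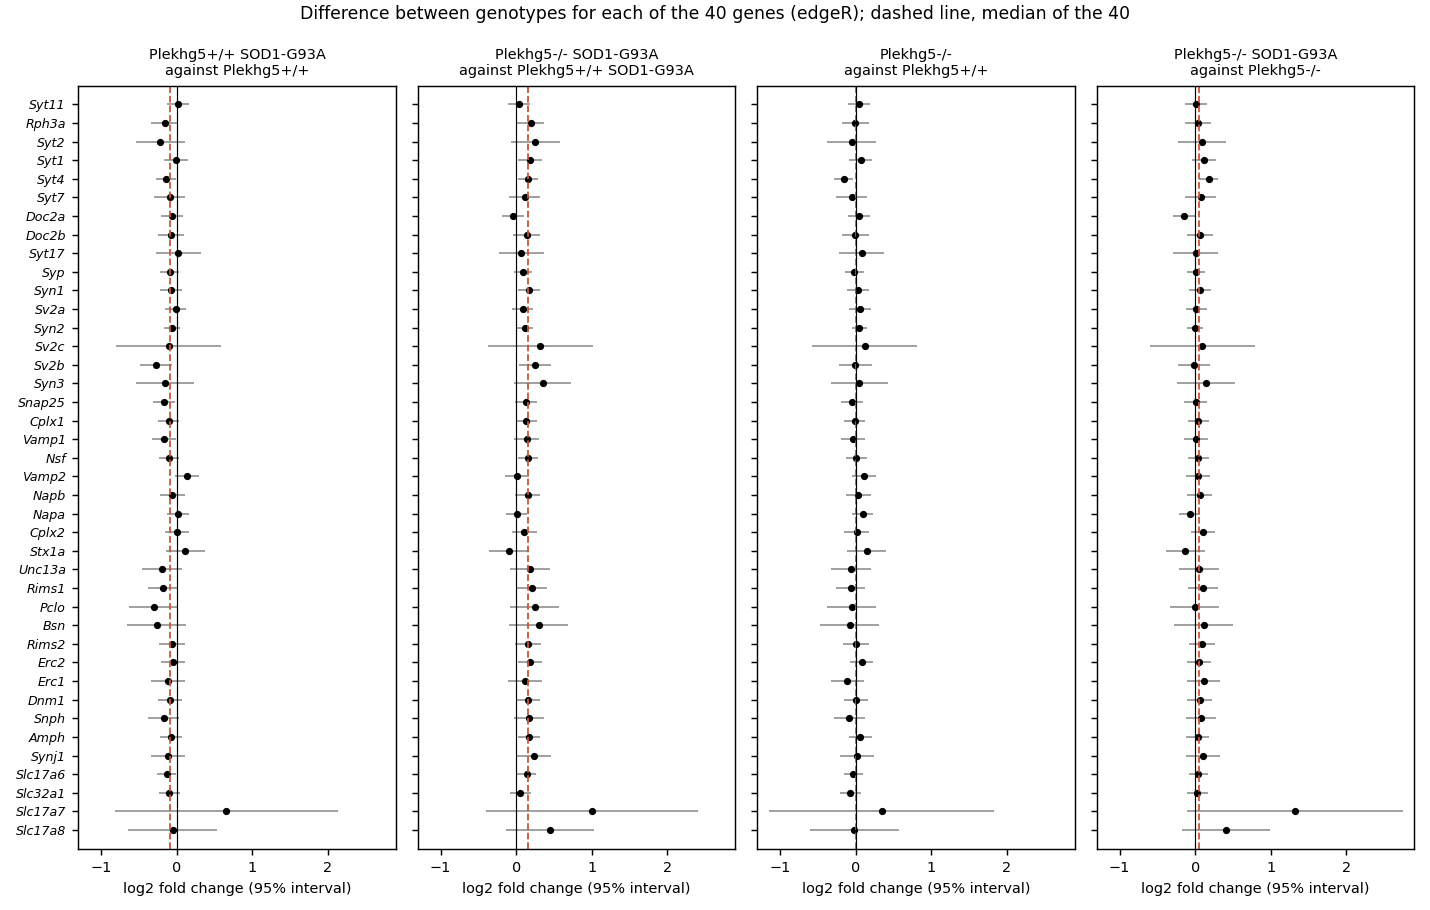
Log2 fold change of each of the 40 genes (points) with its 95% interval (bars) by edgeR in the 4 pairwise comparisons of genotype, with genes in the order of the plot of levels, a solid line at 0 and a dashed line at the median of the 40. Points lean to the left in the first panel (33 of 40 below 0) and to the right in the second (38 of 40 above 0), both of which use the Plekhg5+/+ SOD1-G93A libraries, and Slc17a7 has the widest bar in every panel.

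Loss of Plekhg5 without the transgene left the machinery centred on 0. None of the 40 genes passed the threshold in Plekhg5-/- against Plekhg5+/+ by edgeR, where 0.0298% of all genes did, and DESeq2 called 0. By either tool 1 gene had an unadjusted p under 0.05, against 5.32% of all genes by edgeR and 2.89% by DESeq2. Estimates were above 0 for 21 genes and below 0 for 19, against 52% of all genes above 0, with a median of 0.0032. All knockout mice exceeded all controls in 2 genes, Syn2 and Slc17a7, against 4.72% of all genes, and all were lower in 1, Syt4, against 3.99%. For 37 of 40 genes the interval lay within 1.5-fold of equality, with Sv2c, Slc17a7 and Slc17a8 outside. When the 3 libraries low in long transcripts were left out, 15 estimates were above and 25 below 0, against 49.7% of all genes above. The median was -0.02, and by edgeR 0 passed and 0 had an unadjusted p under 0.05, against 3.69% of all genes. With the mouse number as a block in a fit of these 2 genotypes alone, by edgeR 0 of 40 passed, against 12 of all genes, and the median was 0.005.

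Syt4 was measured at 197, 209 and 213 CPM in Plekhg5-/- mice, all below the 217 to 243 CPM of Plekhg5+/+ mice, with a log2 fold change of -0.16 ± 0.06 (adjusted p = 0.929, edgeR). Vamp2 was measured at 317, 309 and 300 CPM in Plekhg5+/+ and 356, 330 and 315 CPM in Plekhg5-/- mice. The groups overlapped, and the log2 fold change was 0.11 ± 0.07 (adjusted p = 0.976, edgeR). Napa, which recruits Nsf to SNARE complexes, was measured at 193, 194 and 190 CPM in Plekhg5+/+ and 222, 194 and 198 CPM in Plekhg5-/- mice, where only knockout mouse 1, one of the libraries low in long transcripts, was clearly higher. The log2 fold change of Napa was 0.09 ± 0.06 (adjusted p = 0.986, edgeR).

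The transgene on the Plekhg5-/- background also moved no gene of the machinery past the threshold. By edgeR 0 of 40 passed in Plekhg5-/- SOD1-G93A against Plekhg5-/-, where 0.00496% of all genes did, and 2 of 40 had an unadjusted p under 0.05, against 5.38% of all genes. DESeq2 called 0 as well, with 2 at an unadjusted p under 0.05, against 3.03% of all genes in its fit. Estimates were above 0 for 34 of 40 genes, against 48.3% of all genes, with a median of 0.05. Without the 3 libraries low in long transcripts this count was 25 of 40, against 49.1% of all genes, and the median 0.0077. With a term for length it was 33 of 40, against 52.7% of all genes, and the median 0.047. All double mutants exceeded all Plekhg5-/- mice in 1 gene, Syt4, against 7.25% of all genes, and were all lower in 1, Doc2a, against 5.22%. Markers of other cells leaned in this comparison as well, none past the threshold. All 5 Schwann cell markers (median 0.86) and all 7 endothelial markers (median 0.31) were above 0, and all 9 oligodendrocyte markers below 0 (median -0.18). The 7 tested sensory neuron markers, from a list of 14 chosen after their values were seen, were also above 0 (median 0.91). The sum of the 14 was high in mouse 2 alone, with 19.1, 63.9 and 19.4 CPM in double mutants and 15.1 to 17 CPM in Plekhg5-/- mice. The part of all these markers in the values of the machinery was not tested.

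For Syt4 the log2 fold change on this background was 0.18 ± 0.06 (adjusted p = 0.763, edgeR), with the mice at 197 to 213 CPM against 232 to 235 CPM. Doc2a was measured at 35.3, 33.6 and 32.4 CPM in Plekhg5-/- and 29.1, 30.2 and 31.9 CPM in Plekhg5-/- SOD1-G93A mice. The groups were separate by a narrow margin, and the log2 fold change was -0.15 ± 0.07 (adjusted p = 0.91, edgeR). The other Doc2a values were 34.3, 31.9 and 31.9 CPM in Plekhg5+/+ and 29.1, 31.5 and 33.1 CPM in Plekhg5+/+ SOD1-G93A mice, which overlapped. Averaged over both Plekhg5 genotypes, the transgene gave Doc2a a log2 fold change of -0.11 ± 0.05 (adjusted p = 0.316, edgeR), the smallest p of the 40 genes there.

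The interaction asked whether the transgene acted differently with and without Plekhg5. By edgeR 0 of 40 genes and 0% of all genes passed, and 1 of 40, Syt4, had an unadjusted p under 0.05, against 9.05% of all genes. DESeq2 called 1, Syt4, among 95 genes it called in all. It had 3 of 40 at an unadjusted p under 0.05, against 5.34% of all genes in its fit. Estimates were above 0 for 34 of 40 genes, against 47.4% of all genes, with a median of 0.15 against -0.01 over all genes. With the same 3 libraries left out, 37 were above 0, against 48.5% of all genes, and the median was 0.14. In that fit 6 had an unadjusted p under 0.05, against 9.06% of all genes. Active zone genes (7 of 7 above 0, median 0.24), vesicle proteins (7 of 7, median 0.14), genes of endocytosis and presynaptic mitochondria (4 of 4, median 0.19) and transporters (4 of 4, median 0.32) were all on one side. Calcium sensors and SNARE genes were split, each with 6 above and 3 below 0. Beside them, all 12 microglial markers were below 0 (median -1.03) and all 7 endothelial markers above 0 (median 0.72), and their part in these values was not tested.

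Syt4 was the gene whose groups were apart in all 4 pairwise comparisons. With all libraries its mice were lower with either alteration alone and overlapped with Plekhg5+/+ mice with both. Without the 3 libraries low in long transcripts the edgeR log2 fold changes of Syt4 were -0.07 ± 0.04 for the transgene alone (adjusted p = 0.431) and -0.09 ± 0.04 for loss of Plekhg5 alone (adjusted p = 0.999), against -0.14 and -0.16 with all. Its interaction was 0.32 ± 0.09 on the log2 scale (adjusted p = 0.375, edgeR), and DESeq2 gave 0.32 with an adjusted p of 0.0489. Without the 3 libraries low in long transcripts the edgeR interaction was 0.20 ± 0.06 (adjusted p = 0.506), and with a term for length 0.25 ± 0.07 (adjusted p = 0.29). Next came Rims1, a Rab3-binding organiser of priming, with 0.28 ± 0.13 (adjusted p = 0.551, edgeR) and Slc17a6 with 0.17 ± 0.08 (adjusted p = 0.555, edgeR). Rims1 was measured at 92, 108 and 112 CPM in Plekhg5+/+, 89, 103 and 106 in Plekhg5-/-, 93.4, 100 and 83.4 in Plekhg5+/+ SOD1-G93A and 105, 111 and 105 in Plekhg5-/- SOD1-G93A mice, the groups overlapping except between the transgenic genotypes.

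**Figure D5:**
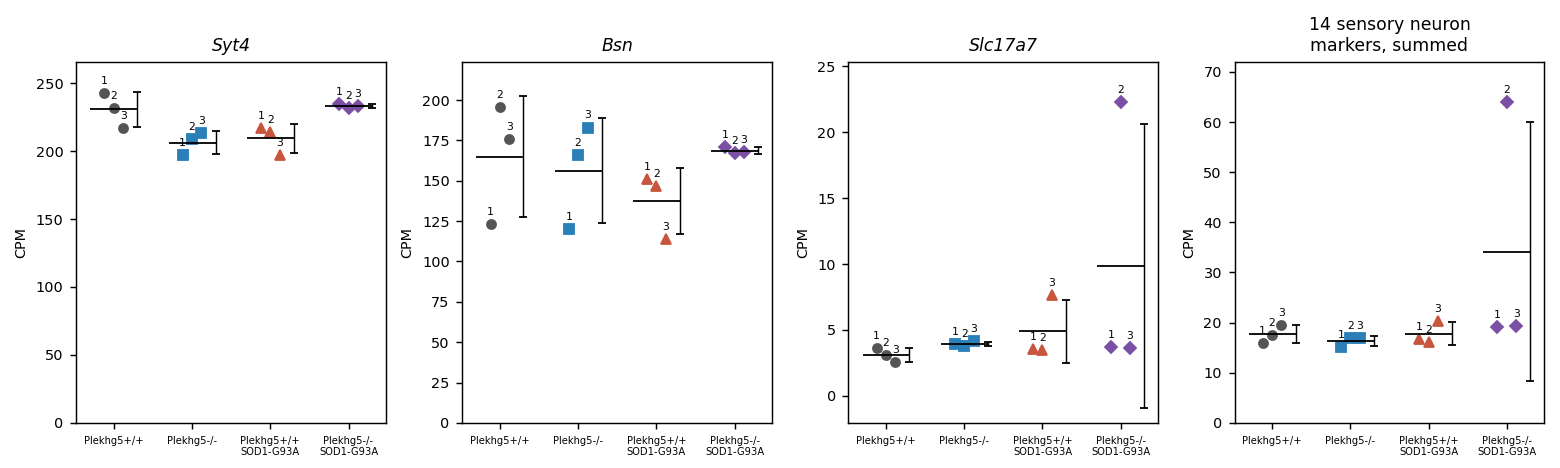
CPM of Syt4, Bsn and Slc17a7 and the summed CPM of 14 markers of dorsal root ganglion sensory neurons in each mouse (numbered points), with the mean (line) and SD (bar, n = 3) of each genotype. Syt4 is lower in both single-alteration groups, Bsn is lowest in Plekhg5+/+ #1, Plekhg5-/- #1 and Plekhg5+/+ SOD1-G93A #3, and Slc17a7 and the sum of sensory markers share the high Plekhg5-/- SOD1-G93A mouse 2.

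Averaged over both Plekhg5 genotypes, the SOD1-G93A transgene moved 0 of 40 genes past the threshold by edgeR, against 1.22% of all genes, and 0 by DESeq2. At an unadjusted p under 0.05 there were 1 and 3, against 14.7% of all genes by edgeR and 8.79% by DESeq2. The median was -0.01, with 28 of 40 below 0, against 52.3% of all genes. Leaving out the 3 libraries low in long transcripts, 32 were below 0, against 51.4% of all genes in that fit, and the median was -0.05. In that fit 10 had an unadjusted p under 0.05, against 21.7%. By edgeR 1 passed, Pclo, as lower, where 164 of all 20357 genes did. With a term for length 20 were below 0, against 47.1% of all genes, and the median was -0.0039. There 3 had an unadjusted p under 0.05, against 18%, and 0 passed by edgeR. Averaged over both backgrounds, loss of Plekhg5 moved 0 of 40 by edgeR, against 0.0546% of all genes, and 0 by DESeq2. At an unadjusted p under 0.05 there were 4 and 5, against 3.88% of all genes by edgeR and 2.22% by DESeq2. Here 38 of 40 estimates were above 0, against 48.3% of all genes, and their median was 0.07. Leaving out those 3 libraries, 36 were above 0, against 47.3% of all genes, the median was 0.05 and 2 had an unadjusted p under 0.05, against 4.82%. With a term for length 37 were above 0, against 49.9%, the median was 0.07 and 7 had an unadjusted p under 0.05, against 5.24%. With all libraries and no length term, the smallest p values were those of Erc2, an active zone scaffold, Syt1 and Syn2. Their log2 fold changes were 0.13 ± 0.05, 0.12 ± 0.05 and 0.08 ± 0.03 (adjusted p = 0.987 for each, edgeR). Erc2 was measured at 45.8, 54.8 and 52.9 CPM in Plekhg5+/+, 52.6, 52.8 and 56.7 in Plekhg5-/-, 50.7, 51.6 and 46.1 in Plekhg5+/+ SOD1-G93A and 56.1, 56.4 and 55.5 in Plekhg5-/- SOD1-G93A mice. Syn2 was measured at 277, 282 and 282, then 296, 283 and 293, then 263, 276 and 265, then 285, 290 and 293 CPM in the same order of genotypes. In both genes the double mutants exceeded all Plekhg5+/+ SOD1-G93A mice, and in Syn2 the Plekhg5-/- mice also exceeded all Plekhg5+/+ mice, which in Erc2 they did not.

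Slc17a7 (gene ID 72961, chromosome 7, 45163921 to 45176139, plus strand) gave the largest fold changes and the widest intervals of the list. It was measured at 3.6, 3.12 and 2.6 CPM in Plekhg5+/+ mice, 3.92, 3.77 and 4.13 in Plekhg5-/- mice, 3.54, 3.5 and 7.62 in Plekhg5+/+ SOD1-G93A mice and 3.7, 22.3 and 3.63 in Plekhg5-/- SOD1-G93A mice. Double-mutant mouse 2 was far above all others and Plekhg5+/+ SOD1-G93A mouse 3 came next. The log2 fold change of Slc17a7 in Plekhg5-/- SOD1-G93A against Plekhg5-/- was 1.32 ± 0.64 (adjusted p = 0.95, edgeR) with all mice and -0.11 without double-mutant mouse 2. The same mouse had the highest Slc17a8 value, 3.4 CPM against 1.36 to 2.18 in the other 11.

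Markers of dorsal root ganglion sensory neurons, which also use Slc17a7, were summed over 14 genes chosen after these values were seen. The sum was 63.9 CPM in double-mutant mouse 2 and 15.1 to 20.4 CPM in the other 11 mice. Scn10a, the sodium channel of nociceptors, was at 8.2 CPM in that mouse and at 0 to 0.551 CPM in the others, and Avil, a marker of peripheral sensory neurons, at 5.01 CPM against 0.263 to 0.963. Not all 14 were high there: Runx3, at 0.182 CPM, and Trpm8, at 0.121 CPM, lay within the range of the other mice. Plekhg5+/+ SOD1-G93A mouse 3, second in Slc17a7, had the next highest sum of sensory markers, 20.4 CPM, close to the 19.6 CPM of a Plekhg5+/+ mouse with 2.6 CPM of Slc17a7. The part of such cells in the Slc17a7 values was not tested.

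Of 83 further genes of release and vesicle cycling on a list, among them the Munc18 and tomosyn genes, Rab3 isoforms, proton pump subunits and clathrin adaptors, 81 were tested (Slc18a3 and Slc5a7 are also motoneuron markers above), and by edgeR 0 passed the threshold in any of the 7 comparisons. In Plekhg5+/+ SOD1-G93A against Plekhg5+/+, 65 of the 81 were below 0 (median -0.07), with 7 at an unadjusted p under 0.05, against 18.2% of all genes. In Plekhg5-/- SOD1-G93A against Plekhg5+/+ SOD1-G93A, 64 were above 0 (median 0.11), with 14 at an unadjusted p under 0.05, against 8.64% of all genes, and in 34 all double mutants exceeded all Plekhg5+/+ SOD1-G93A mice, against 9.48%. In Plekhg5-/- against Plekhg5+/+ the median was -8e-04, with 40 above and 41 below 0, and in Plekhg5-/- SOD1-G93A against Plekhg5-/- it was 0.01, with 50 above 0. These last comparisons held 0 and 2 genes at an unadjusted p under 0.05, against 5.32% and 5.38% of all genes. Summed over the 40 genes, the libraries held 15600, 16900 and 17100 CPM in Plekhg5+/+ mice, 15900, 16500 and 17000 in Plekhg5-/- mice, 14800, 16600 and 14400 in Plekhg5+/+ SOD1-G93A mice and 17200, 16600 and 16900 in Plekhg5-/- SOD1-G93A mice. The lowest 2 sums were those of Plekhg5+/+ SOD1-G93A mice 3 and 1, and the third mouse of that genotype was within the range of the other groups.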

How the data were processed

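Poly-A RNA of 12 spinal cords (4 genotypes, 3 mice each) was sequenced on stranded libraries. Per the labels and the study's methods, the authors trimmed reads with cutadapt 2.4, aligned them with STAR 2.7.2b to GRCm38.p6 plus human SOD1 cDNA, and counted them per gene with featureCounts 1.6.4 after bcl2fastq 2.20.0.422. The deposited values are expected counts, since reads of several positions were split, and they were rounded here. Snap25 and Syt11 held fractional counts in all 12 libraries. Size factors (TMM) and robust quasi-likelihood tests were computed with edgeR 4.0.16 in R 4.3.3 over all 12 libraries with genotype as the only term, for 20155 genes kept by filterByExpr, and called at a Benjamini-Hochberg adjusted p under 0.05. DESeq2 1.42.0, other filters, a length term, a replicate block and the omission of libraries were alternatives. The scripts were tested on simulated data. Ratios were tested with SciPy 1.17.1. Libraries of 1 group differed beyond counting noise (chi-square per degree of freedom 5.82 to 28.4). Precision is limited by 3 mice per group, not by depth (at least 30415643 counts), and intervals are 95% from the fit.

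Same-numbered Plekhg5+/+ and Plekhg5-/- mice deviated together from their group means (r = 0.605, 0.338 and 0.182 for numbers 1, 2 and 3), so these were also compared with the number as a block. Mouse 1 of both genotypes was among the libraries low in long transcripts. In no other comparison did all 3 pairs exceed 0.1, and the labels do not say what a number shares.

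The 40 genes and all lists were chosen with earlier results of these data known. Per-mouse values are given for the 3 genes with the smallest p in each comparison, the lead gene of each role and the ratios of lowest p with their genes. Other list genes are named only where called. Bsn, Vamp1, Pclo and the sensory markers were added after their values were seen. No sequence is shown.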

Additional observations from a re-analysis of the deposited data

Results flagged for a closer look

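Syt4 differed in direction between backgrounds. All Plekhg5+/+ SOD1-G93A mice were below all Plekhg5+/+ mice, while all Plekhg5-/- SOD1-G93A mice were above all Plekhg5-/- mice. The difference between these effects was 0.3168 on the log2 scale, with an adjusted p of 0.375 by edgeR's quasi-likelihood test, past the threshold by DESeq2 only (adjusted p = 0.0489 without and 0.0445 with a prior on fold changes). When each library was left out in turn the value ran from 0.276 to 0.371. Without the 3 libraries low in long transcripts it fell to 0.20, and with a term for length to 0.25.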

How the results depend on the processing

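The count of genes called was recomputed 173 times over the 7 comparisons and was the same as in the report in 168. DESeq2 called 1 gene, Syt4, in the interaction, both without and with a prior on fold changes. Leaving out single libraries gave 0 to 2 genes in Plekhg5+/+ SOD1-G93A against Plekhg5+/+, the 2 being Snap25 and Vamp1 without Plekhg5+/+ SOD1-G93A mouse 2, and 0 in the other comparisons. How many of all genes passed without that mouse is not given, so these 2 calls cannot be set against a share. Without the 3 libraries low in long transcripts, chosen after the data were seen, 1 gene was called in that comparison (Bsn) and 1 for the transgene averaged over both Plekhg5 genotypes (Pclo, log2 fold change -0.24, adjusted p = 0.0495, edgeR). Over all genes these 2 comparisons then held 246 and 164 calls. The cause was not tested. The 173 recomputed medians moved by less than the spread between mice (SD 0.0686), the median in Plekhg5-/- SOD1-G93A against Plekhg5+/+ SOD1-G93A running from 0.113 to 0.22 and that in Plekhg5+/+ SOD1-G93A against Plekhg5+/+ from -0.146 to -0.037. Leaving out single libraries moved Slc17a7 in Plekhg5-/- SOD1-G93A against Plekhg5-/- between -0.105 and 1.715. All 336 recomputed ratios moved by less than the spread between mice. Leaving out 1 of 3 mice cannot move a ratio difference by more than this spread, so that count does not measure stability.

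Deviations of same-numbered libraries correlated above 0.1 for all 3 numbers between Plekhg5+/+ and Plekhg5-/- only. Mouse 1 of both genotypes was among the libraries low in long transcripts, and the labels do not say that a number pairs mice. Of 18 pairs of libraries with the same number 9 had deviations correlated above 0.1 (r from -0.356 to 0.605), and 4 of 12 libraries correlated best with their own number. With the replicate block 0 of the 40 genes were called by edgeR in each of the 7 comparisons, and calls over all genes went from 498 to 631, 7 to 8, 6 to 8, 1 to 1, 0 to 0, 245 to 417 and 11 to 10. DESeq2 without a prior called 1162, 72, 34, 45, 95, 820 and 18 genes in the same order. The block within Plekhg5+/+ and Plekhg5-/- changed no call of the 40 genes and gave 12 calls over all genes in place of 6. With 3 mice per group, the 95% interval of Slc17a7 reached 1.4 to 1.49 on the log2 scale to either side of its estimate in the pairwise comparisons, and the median of the 40 genes 0.163.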

Other observations

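The receiving side of the synapse was measured through 25 postsynaptic genes, of which edgeR called 0 in any of the 7 comparisons. In Plekhg5+/+ SOD1-G93A against Plekhg5+/+, 20 of them were below 0 (median log2 fold change -0.09), against 50.3% of all genes. At an unadjusted p under 0.05 there were 7, against 18.2% of all genes, and the lowest edgeR adjusted p was 0.0815. In Plekhg5-/- SOD1-G93A against Plekhg5+/+ SOD1-G93A, 22 were above 0 (median 0.11), against 47.5% of all genes, with 2 at an unadjusted p under 0.05, against 8.64%. Both comparisons use the Plekhg5+/+ SOD1-G93A libraries.

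Of 9 oligodendrocyte markers edgeR called 0 in any comparison, and all 9 were below 0 in Plekhg5-/- SOD1-G93A against Plekhg5-/- (median -0.18). Their sum was highest in Plekhg5-/- mouse 1, 31900 CPM, followed by Plekhg5+/+ mouse 1 with 28000 and Plekhg5+/+ SOD1-G93A mouse 3 with 27900, the 3 libraries low in long transcripts, against 22400 to 25500 CPM in the other 9.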
